A study of Mus musculus with 4 samples.

Results

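The genes described here encode the steroid-making enzymes of the testis, the STAR protein that feeds them cholesterol, the receptor for luteinizing hormone (LH) and the Leydig cell hormone INSL3. There are 10 of them, *Star*, *Cyp11a1*, *Fdx1*, *Hsd3b1*, *Hsd3b6*, *Cyp17a1*, *Hsd17b3*, *Hsd17b1*, *Lhcgr* and *Insl3*, of 54920 gene symbols counted. They were taken by symbol and function, and the set was chosen by a measured value too, as the log2 fold change of *Hsd17b1* in the comparison below was among the largest increases. Their differences between groups are therefore given as a description.

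RNA was measured in ID4-EGFP+ cells, which carry a green fluorescent reporter of the spermatogonial stem cell factor ID4, sorted at postnatal day 8 (P8) from testis cell suspensions. All mice were *Cnot3*flox/flox, carried *Id4-eGfp* and received 4-OHT (tamoxifen) injections from P1 to P3. *Cnot3*-cKO mice (2 libraries) also carried *Ddx4*-creER, a tamoxifen-inducible Cre recombinase driven by a germ cell promoter, and the control mice (2 libraries, labelled wild-type) did not. *Cnot3*-cKO cells below means all cells sorted from *Cnot3*-cKO mice. Which of the sorted cells held a given transcript was not measured. CNOT3 is a subunit of the CCR4-NOT complex, which shortens the poly(A) tails of mRNAs, and the comparison asks which transcripts change when it is lost. The paper's figure legend gives more biological replicates for this RNA-seq than the 2 libraries per group used here. How many mice went into a library is not given in the sources used here, so p-values measure only the spread between these libraries.

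Steroid synthesis starts when STAR moves cholesterol to the inner mitochondrial membrane. There CYP11A1, supplied with electrons by ferredoxin (FDX1), cuts the cholesterol side chain to give pregnenolone. The HSD3B enzymes turn pregnenolone into progesterone, CYP17A1 makes androgens from it, and 17-beta-hydroxysteroid dehydrogenases finish testosterone. In the testis this takes place in Leydig cells, in the interstitium between the tubules, where LH acts through LHCGR. In the fetal mouse testis Sertoli cells carry out the last, 17-beta-reducing step.

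Counted reads ran from 22192964 to 43378493 per library, and the *Cnot3*-cKO libraries were the shallower pair. *Cnot3* had 2362 and 2114 reads in the controls and 435 and 571 in *Cnot3*-cKO cells, so its level fell by 1.48 on the log2 scale (adjusted p = 1.48e-05). Levels are given as CPM, which are TMM-scaled counts divided by the library's depth. A gene was called where edgeR's quasi-likelihood test over 23952 genes gave an adjusted p under 0.01 with more than a 2-fold change. Permuting the labels of 2 libraries against 2 allows an exact two-sided p of 0.333 at the smallest for any one gene.

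Of the 10 genes, 9 passed the expression filter, and 6 of these 9 were called higher in *Cnot3*-cKO cells, namely *Hsd17b1*, *Hsd17b3*, *Lhcgr*, *Cyp17a1*, *Hsd3b1* and *Cyp11a1*. None was called lower. *Star*, *Hsd3b6* and *Fdx1* were not called, and *Insl3* had no reads. Among all tested genes 4.03% were called higher and 0.735% lower. Since the set was put forward on this comparison, nothing is read from its count. The median log2 fold change was 1.35 over the 9 genes and 0.01 over all tested genes. For all 9 the lower *Cnot3*-cKO library was above the higher control, as it was for 30.5% of all tested genes.

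**Figure D1:**
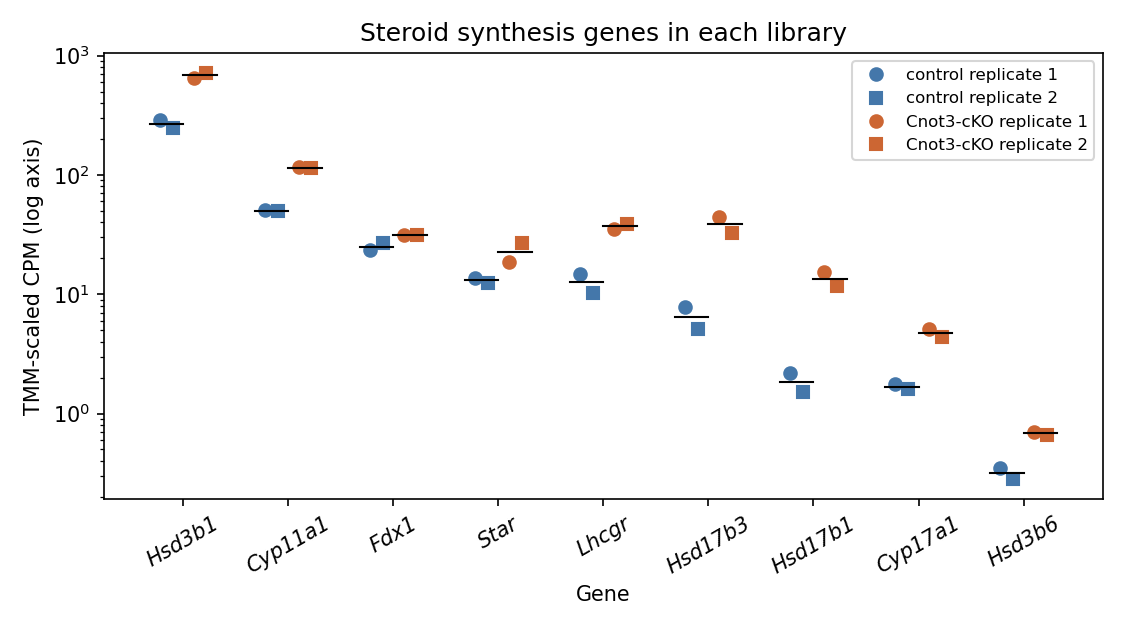
TMM-scaled CPM on a log axis for the 9 genes with reads, in each control (blue) and *Cnot3*-cKO (orange) library, with black lines at the group means. *Hsd3b1* was highest in every library, at 248 to 287 CPM in the controls and 656 to 712 CPM in *Cnot3*-cKO cells, and the groups overlapped for none of the genes.

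The promoter windows of 3 genes are shown to set a pair of genes that were called higher next to one that was not. *Hsd3b1* was the most abundant of the set, *Hsd17b3* had the largest fold change of those with a window in the table used, and *Fdx1* had the smallest. The sequences are RefSeq windows on GRCm38.p6 from 250 bases before to 50 after the gene start, 5′ to 3′ on the gene's strand, and here each gene lies on the reverse strand. Capitals mark exact matches to the GATA-type letters NGATAA or, first in *Hsd17b3*, the AP-1-type letters TGANTCA.
*Hsd3b1* (chr3:98859745-98860044): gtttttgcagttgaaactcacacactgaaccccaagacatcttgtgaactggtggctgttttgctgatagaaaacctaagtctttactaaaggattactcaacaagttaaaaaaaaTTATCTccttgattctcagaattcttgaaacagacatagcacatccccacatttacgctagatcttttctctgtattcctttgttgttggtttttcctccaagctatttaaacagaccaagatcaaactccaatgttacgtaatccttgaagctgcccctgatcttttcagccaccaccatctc
*Hsd17b3* (chr13:64089152-64089451): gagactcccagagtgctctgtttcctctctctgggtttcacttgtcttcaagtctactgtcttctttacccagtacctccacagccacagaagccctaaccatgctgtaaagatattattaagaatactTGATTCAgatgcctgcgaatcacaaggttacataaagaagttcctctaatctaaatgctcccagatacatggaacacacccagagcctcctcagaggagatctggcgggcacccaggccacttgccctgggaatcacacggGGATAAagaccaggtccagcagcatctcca
*Fdx1* (chr9:51963553-51963852): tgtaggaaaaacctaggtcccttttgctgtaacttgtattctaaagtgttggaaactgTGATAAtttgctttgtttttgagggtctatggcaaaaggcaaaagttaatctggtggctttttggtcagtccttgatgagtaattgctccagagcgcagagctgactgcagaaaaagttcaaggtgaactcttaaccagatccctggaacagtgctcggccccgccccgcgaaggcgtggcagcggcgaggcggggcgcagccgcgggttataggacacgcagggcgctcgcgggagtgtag
Windows were found for 7 of the 10 genes, 8 windows in all, *Cyp11a1* having 2. *Star*, *Cyp17a1* and *Hsd17b1* had no window, so their promoters were not searched. Those of *Cyp11a1* lie at 57997774 to 57998073 and at 58014702 to 58015001. Neither covers the start of the gene model described below (58006411). On either strand, NGATAA occurred in 4 of the 8 windows, also in that of *Hsd3b6*, and in 25.3% of all 32851 windows. TGANTCA occurred in 1 of 8 against 7.81% of all windows. The letters AAGGTCA (the NR5A1 type), TGACGT (the core of the cAMP response element) and TATAAA occurred in none of the 8, against 4.72%, 7.51% and 13.6% of all windows. The matches do not overlap each other, and they are letters in a window, not measured binding.

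*Star* encodes the protein that delivers cholesterol into mitochondria, and lies on chromosome 8 of GRCm38 (25806555 to 25815982, forward strand). It had 13.8 and 12.4 CPM in the controls and 18.7 and 26.9 CPM in the *Cnot3*-cKO libraries. The groups did not overlap, but the *Cnot3*-cKO libraries differed from each other by 0.53 on the log2 scale, the widest gap between these libraries for any tested gene of the set. Its log2 fold change was 0.80 (standard error 0.19), a fold of 1.75, so it met the limit on the adjusted p but not the limit on the fold. Without *Cnot3*-cKO replicate 1 it was 1.03 and called, and without *Cnot3*-cKO replicate 2 it was 0.51, in fits where the spread comes from the controls alone.

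*Cyp11a1* encodes the side-chain cleavage enzyme, which sets off steroid synthesis, and lies on chromosome 9 (58006411 to 58027023, forward strand). Its levels were 50.4 and 50.1 CPM in the controls and 116 and 115 CPM in *Cnot3*-cKO cells. Libraries of the same group differed by about 0.01 on the log2 scale. It rose 2.30-fold (log2 fold change 1.20, standard error 0.09), the smallest fold of the 6 called genes. At its 5′ end the gene shares 3.02% of its exon bases with exons of *Gm17322*, a long noncoding RNA gene on the same strand that had 0.919 to 1.28 CPM in the 4 libraries.

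*Fdx1*, the electron donor of CYP11A1, lies on the reverse strand of chromosome 9 (51943306 to 51963556). It is used by mitochondrial P450 enzymes in general and is made in many cell types. It had 23.6 and 26.6 CPM in the controls and 31.3 and 31.2 CPM in *Cnot3*-cKO cells. The groups were apart by less than for any other tested gene of the set, with a log2 fold change of 0.32 (standard error 0.13), and it was not called.

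*Hsd3b1* encodes the enzyme that makes progesterone from pregnenolone, and lies on chromosome 3 (98852194 to 98859794, reverse strand). It had 287 and 248 CPM in the controls and 656 and 712 CPM in *Cnot3*-cKO cells, or 267 ± 27.4 and 684 ± 39.6 CPM (SD, n = 2 per group). The log2 fold change was 1.35 (standard error 0.09), a fold of 2.56. *Hsd3b1* alone gave 69.7% to 73.1% of the reads of the 10 genes in each library.

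*Hsd3b6*, a paralog on the same stretch of chromosome 3 (98805504 to 98814443, reverse strand) and the form of adult Leydig cells, had only 14 and 12 reads in the controls and 16 and 19 in *Cnot3*-cKO cells. That is 0.348 and 0.285 CPM against 0.706 and 0.663 CPM. Its log2 fold change of 1.10 had a standard error of 0.66, and it was not called. In the transcript models 15.5% of the 50-base stretches of *Hsd3b6*, and 2.16% of those of *Hsd3b1*, also occur in another *Hsd3b* gene. Whether reads matching several genes were counted is not given in the sources used here, so the reads of *Hsd3b6* are uncertain.

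*Cyp17a1*, which encodes the enzyme at the branch to androgens and is a defining Leydig cell gene, lies on chromosome 19 (46667165 to 46673172, reverse strand). It had 1.76 and 1.59 CPM in the controls (71 and 67 reads) and 5.08 and 4.36 CPM in *Cnot3*-cKO cells (115 and 125 reads). It rose 2.81-fold, a log2 fold change of 1.49 (standard error 0.29). Its level stayed far below that of *Hsd3b1* in each library.

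*Hsd17b3* encodes the enzyme that reduces androstenedione to testosterone, and lies on chromosome 13 (64058266 to 64089230, reverse strand). The control libraries had 7.87 and 5.13 CPM and the *Cnot3*-cKO libraries 44.4 and 32.9 CPM. The rise was 5.93-fold, a log2 fold change of 2.57 (standard error 0.21). In both groups replicate 2 was the lower library, by 0.62 on the log2 scale in the controls and 0.43 in *Cnot3*-cKO cells.

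*Hsd17b1*, best known as the enzyme that makes estradiol in the ovary, lies on chromosome 11 (101078411 to 101080527, forward strand). It had 2.18 and 1.52 CPM in the controls and 15.2 and 11.6 CPM in *Cnot3*-cKO cells. The log2 fold change, by which the set was chosen, was 2.85 (standard error 0.25), a fold of 7.23. It differed between libraries of a group the way *Hsd17b3* did, with replicate 2 lower by 0.52 in the controls and 0.39 in *Cnot3*-cKO cells. *Hsd17b3* made up 73.9% to 78.3% of the reads of these 2 genes in the 4 libraries.

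*Lhcgr*, the LH receptor gene, lies on chromosome 17 (88716481 to 88791990, reverse strand). It had 14.8 and 10.2 CPM in the controls and 35.5 and 38.8 CPM in *Cnot3*-cKO cells. It rose 2.96-fold, with a log2 fold change of 1.57 (standard error 0.17). The control libraries differed by 0.54 on the log2 scale, and leaving out control replicate 1 gave 1.84, while leaving out control replicate 2 gave 1.31.

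*Insl3*, the hormone of Leydig cells that guides testis descent, had 0 reads in each of the 4 libraries. With a floor of 3 counts, this allows a level of up to 0.0713 CPM in the deepest library and 0.132 CPM in the shallowest, for counting error only. The gene lies on chromosome 8 (71689214 to 71690575, forward strand), inside the span of *Jak3*, a kinase gene on the same strand, and 64.8% of its exon bases are also exon bases of *Jak3*. How reads that fall on both genes were counted is not given in the sources used here, and their part in the value of 0 was not tested. *Jak3* itself had 73 and 61 reads in the controls and 23 and 43 in *Cnot3*-cKO cells.

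**Figure D2:**
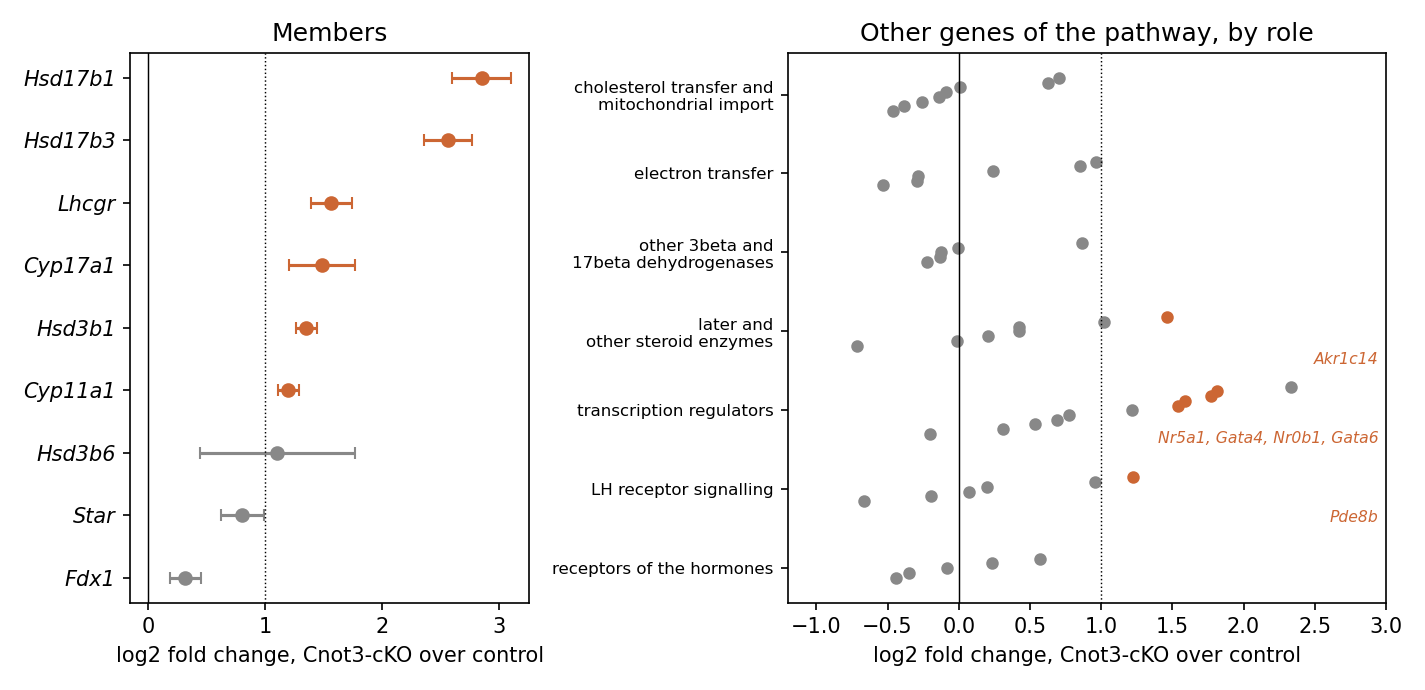
Log2 fold changes of *Cnot3*-cKO over control cells for the 9 tested genes of the set with their standard errors (left), and for 48 other tested genes of the pathway by role (right), with genes called higher in orange and named at the right. The dotted line marks a fold of 2. *Hsd17b1* and *Hsd17b3* lie at 2.85 and 2.57 and *Fdx1* at 0.32, and the called pathway genes lie in 3 roles.

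Levels of different genes were compared as CPM per kilobase of exon. In controls *Hsd3b1* stood at 144 ± 14.8 CPM per kilobase, followed by *Cyp11a1* at 10.5 ± 0.0403 and *Fdx1* at 8.09 ± 0.702 (SD, n = 2). Below them came *Hsd17b3* at 4.67 ± 1.39, *Star* at 3.18 ± 0.232, *Lhcgr* at 1.64 ± 0.426, *Hsd17b1* at 1.38 ± 0.351, *Cyp17a1* at 0.606 ± 0.0435 and *Hsd3b6* at 0.176 ± 0.0245 CPM per kilobase. Of the neighbours in this order only *Lhcgr* and *Hsd17b1* overlapped between libraries.

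In *Cnot3*-cKO cells *Hsd3b1* was again first, at 368 ± 21.3 CPM per kilobase (SD, n = 2). *Hsd17b3* moved from the fourth place to the second, at 27.8 ± 5.85 CPM per kilobase, where its libraries overlapped those of *Cyp11a1* at 24.01 ± 0.145. *Hsd17b1* moved from the seventh place to the fifth, at 10.03 ± 1.90, overlapping *Fdx1* at 10.06 ± 0.0261. *Star* at 5.54 ± 1.41 overlapped *Lhcgr* at 4.86 ± 0.301, and *Cyp17a1* (1.70 ± 0.182) and *Hsd3b6* (0.380 ± 0.0168) stayed last of the genes with reads.

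Reads relative to *Hsd3b1* in the same library do not depend on how the libraries are scaled. For each 100 reads of *Hsd3b1* there were 17.6 and 20.2 reads of *Cyp11a1* in the controls and 17.7 and 16.1 in *Cnot3*-cKO cells, so the groups overlapped. They also overlapped for *Cyp17a1*, at 0.614 and 0.642 in the controls and 0.774 and 0.613 in *Cnot3*-cKO cells. *Lhcgr* had 5.18 and 4.13 in the controls and 5.42 and 5.45 in *Cnot3*-cKO cells. For *Lhcgr* the *Cnot3*-cKO libraries were the higher pair, by less than the control libraries differed from each other.

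For the other genes with reads the groups did not overlap. *Hsd17b3* went from 2.74 and 2.07 reads per 100 to 6.77 and 4.62. *Hsd17b1* went from 0.762 and 0.613 to 2.32 and 1.63. In the opposite direction, *Fdx1* went from 8.21 and 10.7 to 4.77 and 4.38, and *Star* from 4.79 and 5.001 to 2.85 and 3.78. *Hsd3b6*, with few reads, went from 0.121 and 0.115 to 0.108 and 0.0932. *Hsd3b1* itself rose 2.56-fold, so any gene that rose by less is lower on this scale. The median log2 fold change was 0.01 over all tested genes against 1.35 for *Hsd3b1*, so most genes would be lower here too. The share of all genes whose groups are apart on this scale was not counted, so nothing particular to these genes is read from it. In CPM, *Fdx1*, *Star* and *Hsd3b6* were each higher in both *Cnot3*-cKO libraries than in both controls. These proportions were not tested.

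**Figure D3:**
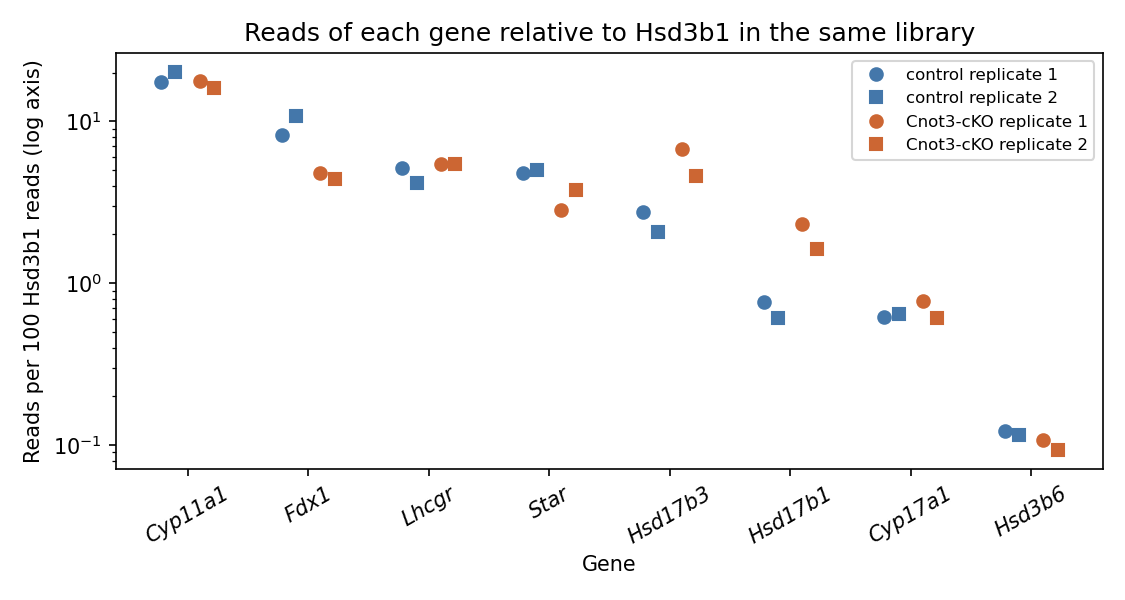
Reads of each gene per 100 reads of *Hsd3b1* in the same library, on a log axis, for control (blue) and *Cnot3*-cKO (orange) libraries. Relative to *Hsd3b1*, which itself rose 2.56-fold, *Hsd17b3* and *Hsd17b1* were higher and *Fdx1* and *Star* lower in both *Cnot3*-cKO libraries. *Cyp11a1* lay between 16.1 and 20.2 in all 4.

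The profile over the 4 libraries that lay closest to that of *Hsd17b1*, among 15518 genes whose average log2 CPM was 1 or more, was that of *Hsd17b3* (Euclidean distance between centred log2 CPM 0.265). Next came *Sel1l3* (0.321), *Shbg* (0.329), *Ccn1* (0.475) and *Ptprn* (0.513). *Shbg* encodes a protein that binds androgens and, in the testis, is a Sertoli cell product. It had 2.36 CPM in the controls and 15.1 CPM in *Cnot3*-cKO cells. *Cyp11a1* was closest to *Elovl2* (distance 0.0169), *Vsx1* (0.0539), *Tmc6* (0.0557), *Sh3bp5* (0.0575) and *Rgs11* (0.0603). With only 4 libraries in 2 groups, such likeness rests mostly on the size of the group difference.

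Other genes of the pathway were taken as a list of 63 by role, of which 61 symbols were listed and 48 tested. Among the 48, 6 were called higher (12.5%) and none lower, against 4.03% and 0.735% of all tested genes. The median log2 fold change of the 48 was 0.22. Of the 6 called genes, 4 encode transcription regulators of steroid synthesis. The other two were *Akr1c14* and *Pde8b*.

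*Nr5a1* encodes SF-1, the nuclear receptor that activates steroidogenic genes in Leydig and Sertoli cells. It had 19.4 ± 3.09 CPM in the controls and 56.2 ± 0.819 CPM in *Cnot3*-cKO cells (SD, n = 2 per group). The difference was 1.54 on the log2 scale (standard error 0.13, adjusted p = 1.55e-05). *Gata4*, whose zinc finger protein acts beside SF-1 in both cell types, rose from 18.7 ± 2.28 to 56.3 ± 0.131 CPM. *Gata6* rose from 5.12 ± 0.244 to 18.0 ± 2.99 CPM, and *Nr0b1*, encoding the SF-1 inhibitor DAX1, from 1.21 ± 0.444 to 4.11 ± 1.64 CPM. Their log2 fold changes were 1.59, 1.81 and 1.77. Without *Cnot3*-cKO replicate 2 the value of *Nr0b1* was 1.28 and it was not called (adjusted p = 0.0379, edgeR's quasi-likelihood test), where the remaining library was assumed to vary like the controls. For 10 of the 11 regulators both *Cnot3*-cKO libraries were above both controls, as they were for 30.5% of all tested genes. The exception was *Creb1*, the most abundant, for which both *Cnot3*-cKO libraries were below both controls. It had 119 ± 1.36 CPM in the controls and 104 ± 1.32 CPM in *Cnot3*-cKO cells.

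*Akr1c14*, which encodes a 3-alpha-hydroxysteroid dehydrogenase that reduces dihydrotestosterone, rose from 11.2 ± 2.08 to 30.9 ± 2.59 CPM (log2 fold change 1.46, standard error 0.16, adjusted p = 1.00e-04). *Pde8b*, a cAMP phosphodiesterase gene of steroidogenic cells, rose from 7.85 ± 0.599 to 18.4 ± 0.990 CPM (log2 fold change 1.23, standard error 0.17, adjusted p = 4.52e-04). The other LH signalling genes were not called, and *Prkar1a*, a regulatory subunit of protein kinase A and the most abundant, had 157 ± 27.7 CPM in the controls and 180 ± 5.59 CPM in *Cnot3*-cKO cells.

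None of the 8 genes of cholesterol transfer to mitochondria besides *Star* was called, and their median log2 fold change was -0.11. *Acbd3*, the most abundant, had 118 ± 9.59 and 119 ± 7.37 CPM. *Tspo*, the outer membrane protein, had 4.47 ± 0.429 CPM in the controls and 3.76 ± 0.427 CPM in *Cnot3*-cKO cells. None of the 6 electron transfer genes was called either, and *Cyb5r3*, the most abundant in the controls, had 66.0 ± 5.85 and 54.1 ± 1.05 CPM. Closest to the limit on the fold was *Fdxr*, the reductase that loads FDX1 with electrons, which was singled out after its value was seen. It had 16.7 ± 4.76 CPM in the controls and 32.7 ± 1.61 CPM in *Cnot3*-cKO cells, a log2 fold change of 0.97 (standard error 0.18). *Cyb5a*, also named after its value was seen, rose from 20.4 ± 1.86 to 36.9 ± 0.678 CPM (log2 fold change 0.85, standard error 0.13). Both met the limit on the adjusted p but not on the fold.

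Of the other *Hsd3b* and *Hsd17b* genes 5 were tested and 0 were called, with a median log2 fold change of -0.12. Among these, *Hsd17b11*, named after its value was seen, had 3.33 ± 0.240 CPM in the controls and 6.08 ± 0.396 CPM in *Cnot3*-cKO cells (log2 fold change 0.87, adjusted p = 0.0239), and its groups did not overlap. *Hsd17b4*, a peroxisomal enzyme of fatty acid oxidation and the most abundant, had 137 ± 0.0536 CPM in the controls and 137 ± 14.1 CPM in *Cnot3*-cKO cells. *Hsd3b2* and *Hsd3b3* had at most 5 reads in any library. Of the later enzymes, the aromatase gene *Cyp19a1* had 13 and 14 reads in the controls and 2 and 22 in *Cnot3*-cKO cells. The adrenal enzyme genes *Cyp21a1*, *Cyp11b1* and *Cyp11b2* had at most 7 reads in any library. *Srd5a3* was the most abundant of that role in the controls, with 12.5 ± 0.145 and 14.4 ± 0.655 CPM. Among hormone receptors none of 5 was called. *Rxfp2*, the receptor of INSL3, had 8 and 18 reads in the controls and 2 and 18 in *Cnot3*-cKO cells.

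Markers of other cells moved in the same comparison, and in bulk RNA a change in the number of cells of a type and a change in RNA per cell cannot be told apart. The counts of called markers stand beside 4.03% of all tested genes called higher and 0.735% called lower. The summed level of the 10 steroid synthesis genes was 402 and 356 CPM in the controls and 922 and 973 CPM in *Cnot3*-cKO cells, a ratio of 2.50. Of 10 Leydig and interstitial genes outside steroid synthesis, 3 were called higher, *Hao2*, *Prlr* and *Vcam1*, and the list summed to 171 to 187 CPM in the controls and 238 to 265 CPM in *Cnot3*-cKO cells. *Col1a1*, its most abundant gene, had 83.4 ± 6.49 and 74.9 ± 0.161 CPM. None of this list was at 0 in any library.

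Of 10 Sertoli cell genes 9 were called higher, with *Rhox5* the exception, against 4.03% of all tested genes. The list summed to 95.3 to 97.6 CPM in the controls and 330 to 362 CPM in *Cnot3*-cKO cells, a ratio of 3.58. *Inha* was the most abundant in the controls, with 28.4 ± 2.77 CPM against 79.95 ± 13.2 CPM in *Cnot3*-cKO cells, and *Aard* in *Cnot3*-cKO cells, with 25.2 ± 0.623 CPM in the controls and 99.2 ± 8.25 CPM. All 6 macrophage genes were called higher, from a sum of 119 to 191 CPM to one of 347 to 424 CPM, and *Mrc1* was the most abundant. Of the endothelial genes 2 of 4 tested were called higher, and the 5 genes summed to 20.96 to 23.6 CPM in the controls and 35.3 to 39.8 CPM in *Cnot3*-cKO cells. *Tek* was the most abundant, and *Ly6c1* was at 0 in control replicate 2. Of the peritubular myoid genes 0 of 5 were called, with sums of 13.6 to 16.2 CPM and 19.9 to 24.9 CPM, and *Myh11* was the most abundant in the controls. None of 9 germ cell genes was called, with sums of 5897 to 6315 CPM in the controls and 5251 to 5484 CPM in *Cnot3*-cKO cells. *Dazl*, the most abundant of them, had 2487 ± 209 CPM in the controls and 2144 ± 169 CPM in *Cnot3*-cKO cells. Of 6 genes of undifferentiated spermatogonia *Id4* was called higher, from 20.2 ± 0.622 to 41.3 ± 7.11 CPM, while *Zbtb16*, the most abundant in the controls, had 400 ± 50.6 and 227 ± 21.9 CPM. For 4 of the 6 both *Cnot3*-cKO libraries were above both controls, and for 2 both were below. Among all 23952 tested genes this was so for 7302 and 6857. *Gfra1*, named after its value was seen, rose 1.87-fold, from 93.3 ± 3.36 to 174 ± 8.91 CPM, under the fold limit. The part of these cells in the levels of the steroid synthesis genes was not tested.

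**Figure D4:**
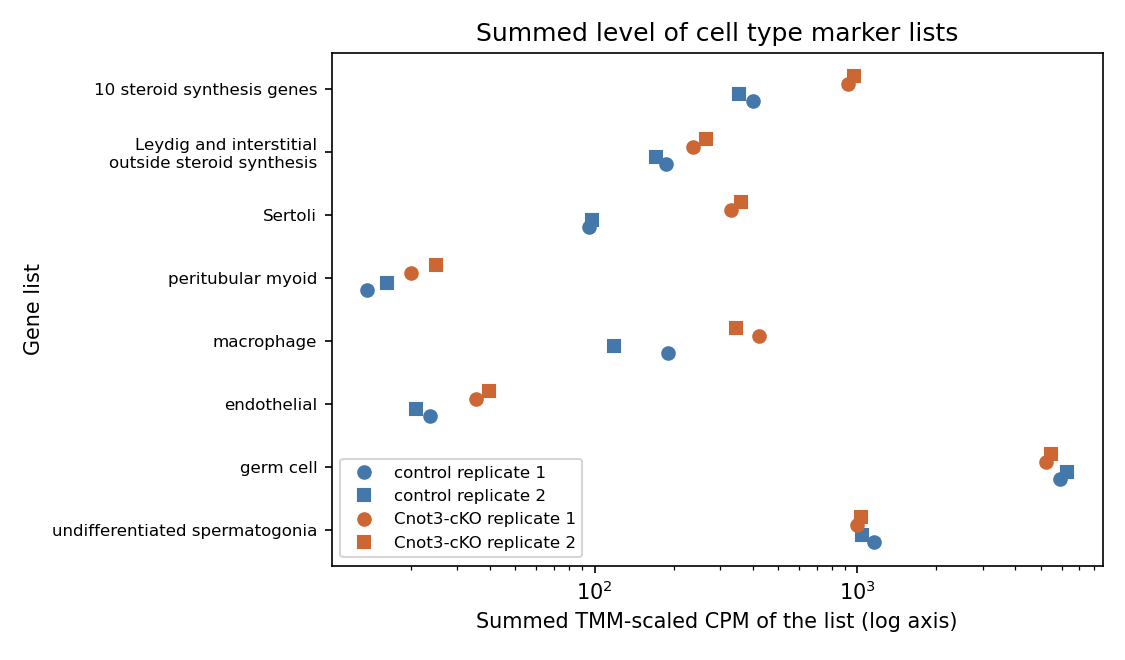
Summed TMM-scaled CPM on a log axis of the 10 steroid synthesis genes and of marker lists of testis cell types, in each control (blue) and *Cnot3*-cKO (orange) library. The sums of the steroid synthesis, Sertoli and macrophage lists were higher by ratios of 2.50, 3.58 and 2.49 in *Cnot3*-cKO cells, and that of the germ cell list was 0.879 of controls.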

How the data were processed

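Per the labels and the study's methods, the authors sequenced stranded total RNA of sorted cells, filtered reads by quality, mapped them with STAR (mm10) and summed reads by gene of the GENCODE annotation in featureCounts. The deposited values are raw counts per gene symbol, 1 file per library. Strand, overlap and multi-mapping options are not given in the sources used here.

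Counts were scaled with TMM factors, filtered with filterByExpr and tested with edgeR 4.0.16 in R 4.3.3 (glmQLFit and glmQLFTest, no covariates), with Benjamini-Hochberg adjustment over all tested genes. The limits, adjusted p under 0.01 and fold change above 2, follow the study, which used DESeq2. DESeq2 1.42.0 was an alternative, beside other scalings, filters, limits, thinning, a replicate block and leaving out each library. Standard errors come from the fitted model. Exon lengths and coordinates came from GENCODE on GRCm38, promoter windows from RefSeq. No protein table was used. Identity of paralogs was described by shared 50-base stretches of transcripts in place of protein alignment. Figures were made in Python 3.11.15 with matplotlib 3.10.9.

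The members and lists were chosen with earlier results of these data known. Named were the 10 genes, *Cnot3*, genes overlapping them, pathway genes that were called or had the highest control level in their role, the highest marker genes and those at 0 in a library, and the 5 closest profiles of *Hsd17b1* and *Cyp11a1*. The gene of highest control level in 1 role is not reported here. The symbols of *Hsd17b8* and *Sts* were not matched. On simulated counts for the 23952 genes, 192 of 200 genes changed 4-fold were recovered and 0 unchanged genes were called. This recovery is for 4-fold changes and not for smaller ones, such as those of *Cyp11a1*, *Hsd3b1*, *Cyp17a1* and *Lhcgr*. Replicate libraries differed by more than counting noise (chi-square per degree of freedom 20.7 for controls and 6.77 for *Cnot3*-cKO).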

Additional observations from a re-analysis of the deposited data

How the results depend on the processing

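All 9 tested genes kept a positive log2 fold change under each alternative in which they were tested, and the same 6 calls were kept under every scaling, filter and left-out library and under DESeq2. When the test itself required a fold above 2 (glmTreat), 2 of the 10 genes and 0 pathway genes were called, against 87 higher and 5 lower among all genes, a stricter demand by its construction. Without a fold limit 7 of the 10 were called higher, *Star* being the addition, with 11 pathway genes higher and 2 lower, and 1488 genes higher and 1125 lower in all. With pan-germ cell scaling the median over all genes was 0.19 and that of the 9 genes 1.53, with 80 genes lower in all. An adjusted p under 0.05 gave 1452 genes higher and 284 lower, no filter gave 285 lower, and leaving out *Cnot3*-cKO replicate 2 gave 271 lower. With 1 library left out, the lone library of its group is assumed to vary like the other group, so calls kept, gained or lost there rest on the spread of 1 pair. Leaving out 1 library at a time gave 6 to 7 members higher and none lower, 5 to 8 pathway genes higher and none lower, and a median of the members from 1.24 to 1.45. *Hsd3b6*, with at most 19 reads in a library, was left out by the filter on a mean count of 50. Whether control and *Cnot3*-cKO libraries with the same replicate number were handled as a pair is not given in the sources used here. The gap between replicates 1 and 2 in the controls had a correlation of 0.0854 with that in *Cnot3*-cKO cells (15519 genes). A single correlation from so few libraries cannot decide whether they were paired. Under the replicate block 6 of the 10 genes and 6 pathway genes were called higher and none lower, with a median of 1.36, and 1155 genes were called higher and 217 lower in all. Depth limits *Hsd3b6*, *Cyp19a1*, *Rxfp2* and the genes under the filter, and the number of libraries limits every comparison.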
